A study of Mus musculus with 4 samples.

Results

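The response of wild-type mouse liver to a 24-hour fast was examined by setting the array of the fasted wild-type pool against the array of the fed wild-type pool. A feature of the array, or probeset, was included when it read 64 units or more on the brighter of these arrays, which held for 5661 of the 22626 probesets that are not controls. The measured values thus decided which probesets were included, in part through the difference itself, since a probeset dim in both pools was left out and one bright in either was kept. The probesets stood for 3571 genes, out of 12393 genes that have a probeset of their own on the array.

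The study profiled liver RNA of wild-type and PPARα-null mice, fed or fasted, on MOE430A arrays of Affymetrix. The receptor PPARα is a transcription factor that fatty acids activate. The wild-type mice were males of substrain 129S1/SvImJ, which the sample labels give as 129Sv, and were 3 to 5 months old. Tissue of fed mice was taken as the night, their feeding period, closed. The fasted mice went without food for 24 hours beginning when the lights came on, so that both groups were sampled at nominally the same time of day. In each group RNA of 5 mice was pooled and hybridized to 1 array, although the methods also speak of smaller pools. The PPARα-null mice, used here only as a comparator, were males of the same age from substrain 129S4/SvJae, pooled and fasted in the same way, so genotype and substrain cannot be told apart. With 1 pooled array a side there was no replicate error, no test was possible and every fold compares 2 arrays. Since whole liver was used, fewer cells of a type and less RNA per cell cannot be told apart.

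In the fasted state insulin falls, glucagon and glucocorticoids rise, and fatty acids released from adipose tissue reach the liver. Hepatocytes burn these fatty acids in mitochondria and peroxisomes, make ketone bodies and glucose for other organs, and shut down the synthesis of fatty acids and cholesterol, which in the fed state is driven by insulin and the SREBP transcription factors. Much of the oxidative programme is switched on through PPARα.

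Both arrays were alike in their overall levels. The median probeset read 14.4 units on each, and the median of the probesets included was 316 units in the fed and 315 units in the fasted pool. The 3′ to 5′ signal ratio of the Gapdh control probesets, a sign of RNA integrity, was 0.953 in the fed and 0.959 in the fasted pool, and that of the actin controls was 2.13 and 2.44. The tissue matched its label. None of the 13 measured hepatocyte markers differed by 1.5-fold, and albumin (Alb) read 14282 units in the fed and 14292 units in the fasted pool. Ppara itself read 583 units in the fed pool and 755 units in the fasted pool, 1.29-fold higher and short of the 1.5-fold threshold used throughout. In the PPARα-null pools it read 104 and 16.3 units, and whether this probeset overlaps the disrupted exon was not established.

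Using the cutoff of 1.5-fold, 744 probesets (13.1%) were higher and 678 (12.0%) were lower in fasted than in fed wild-type liver. The median log2 difference was 0.03, and the 5th and 95th percentiles were -1.05 and 1.00. A difference of 2-fold or more was reached by 289 probesets upward and 318 downward, and 25 and 33 reached 8-fold in the respective direction. A probeset that read under 42.7 units on the dimmer array could be included only because it differed by 1.5-fold or more, and 87 of the higher and 77 of the lower ones were of this kind. At the border of the intensity threshold, 59 probesets read 64 to 66 units on the brighter array and 74 read 62 to 64 units. Counted by gene, with the brightest probeset standing for the gene, 457 of 3571 genes (12.8%) were higher and 450 (12.6%) were lower, with a median log2 difference of 0.01. The counts of genes in lists below are to be read beside these shares. Where 1 gene had several probesets, as 1079 genes did, their log2 differences had an SD of 0.263. Of 341 further probesets of the genes past the cutoff, 335 had the same sign, 255 were past the cutoff as well and 0 were past it in the opposite direction.

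**Figure D1:**
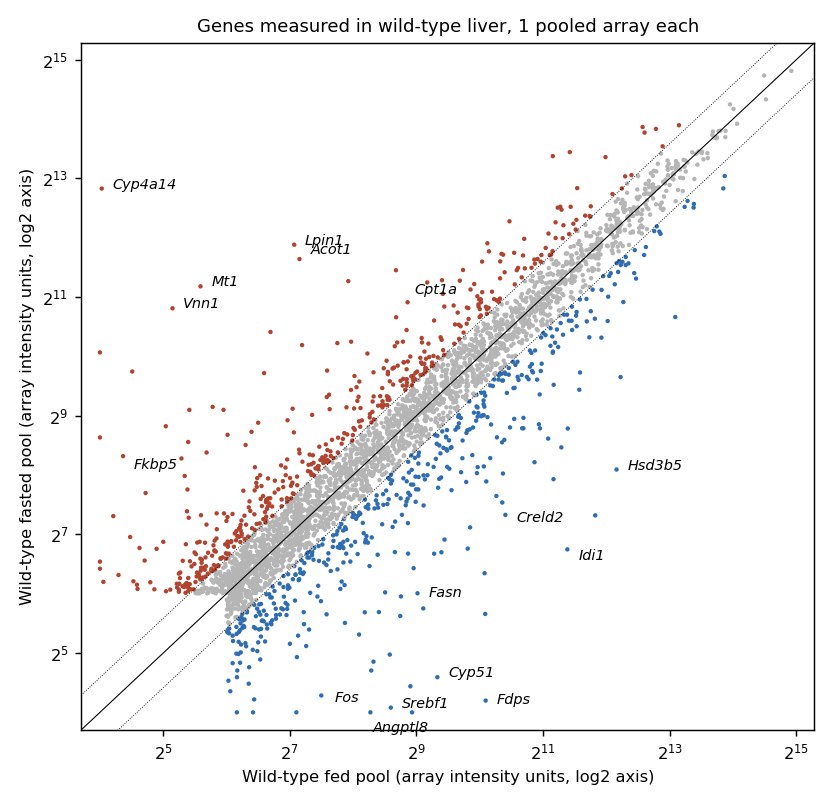
Array intensity of each of the 3571 measured genes in the fed wild-type pool (horizontal) and the 24-hour fasted wild-type pool (vertical), both on log2 axes in array units, with values under 16 drawn at 16. Solid and dotted lines mark equality and 1.5-fold, and the 457 higher genes (red) and 450 lower genes (blue) lie to either side of the grey band of genes within 1.5-fold.

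The highest folds in fasted liver belonged to genes of several different functions. Cyp4a14, which hydroxylates fatty acids at the omega end, read 16.3 units in the fed pool and 7278 units in the fasted pool, 446-fold higher. The fed value lay next to 16 units, the floor to which lower values were raised, so the size of this fold is uncertain, and the near-identical sequences of the Cyp4a genes make the values of single members uncertain too. Its relative Cyp4a31 read 9.17 units in the fed and 1073 units in the fasted pool, at least 67.1-fold higher against the floor. Vnn1, the pantetheinase that releases a precursor of coenzyme A, read 35.4 and 1795 units and was 50.7-fold higher. The metallothionein gene Mt1, which encodes a zinc-binding protein, read 48.1 units in the fed and 2321 units in the fasted pool, 48.2-fold higher. Cyp17a1, a steroid hydroxylase, read 22.8 and 858 units, 37.7-fold higher. Lpin1 encodes lipin 1, a phosphatidate phosphatase and transcriptional coactivator. It read 134 units in the fed pool and 3774 units in the fasted pool, 28.1-fold higher. The small GTPase gene Rab30 was below the floor in the fed pool at 15.0 units and read 397 units in the fasted pool, at least 24.8-fold higher. Fkbp5, a chaperone of steroid receptors that is a sensitive glucocorticoid target, read 20.6 and 319 units, 15.5-fold higher. The ganglioside synthase gene St3gal5 read 104 units in the fed and 1362 units in the fasted pool, 13.2-fold higher, and its second probeset differed by 3.66 on the log2 scale. Nnmt, which methylates nicotinamide, went from 55.0 to 568 units and was 10.3-fold higher. Gpcpd1, a phosphodiesterase that breaks down glycerophosphocholine, read 243 and 2467 units, 10.2-fold higher.

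The lower side of the ranking held sterol and lipid genes, steroid dehydrogenases and secreted proteins. Fdps, farnesyl diphosphate synthase, read 1092 units in the fed pool and 18.4 units in the fasted pool, 59.5-fold lower. This fold rests on a fasted value close to the floor, and the mean over the probesets of Fdps gave a log2 difference of -2.06 in place of -5.89. Angptl8, a secreted protein of feeding that inhibits lipoprotein lipase, read 488 units in the fed and 15.1 units in the fasted pool, at least 30.5-fold lower. A pair of 3β-hydroxysteroid dehydrogenase genes was among them. Hsd3b5 read 4580 units in the fed and 273 units in the fasted pool, 16.8-fold lower, and Hsd3b2 read 1087 and 50.5 units, 21.5-fold lower. Genes with sequences similar to each other, such as these, may share signal on the array. Serpina12, the adipokine vaspin, read 382 and 31.4 units, 12.2-fold lower, and the water channel gene Aqp8 read 320 and 28.9 units, 11.1-fold lower. The chemokine gene Cxcl1 read 181 units in the fed and 19.5 units in the fasted pool, 9.27-fold lower.

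Genes of fatty acid oxidation were higher together in fasted wild-type liver. Of 19 measured genes of the carnitine shuttle and mitochondrial β-oxidation, 13 were higher and 0 were lower, with a median log2 difference of 0.89, against 12.8% higher, 12.6% lower and a median of 0.01 over all measured genes. The carnitine shuttle carries long-chain acyl groups into the mitochondrion. Cpt1a, its rate-limiting outer membrane enzyme, read 904 units in the fed and 1799 units in the fasted pool, 1.99-fold higher. Cpt2, the inner membrane enzyme, read 998 and 2067 units, 2.07-fold higher. The carrier Slc25a20 between them read 445 and 955 units, 2.14-fold higher. Crat, which moves short acyl groups to and from carnitine, stood apart with 26.4 units in the fed and 207 units in the fasted pool, 7.86-fold higher. It was the 1 gene of the list that could be included only because it differed. Within the β-oxidation spiral the genes ranged from a log2 difference of 0.03 to about 2-fold, and 6 of the 19 genes of the list lay within 1.5-fold. Hadha, the α-subunit of the trifunctional protein, read 374 and 831 units, 2.22-fold higher. The medium-chain dehydrogenase gene Acadm read 2540 and 4073 units, a log2 difference of 0.68. Decr1, which reduces intermediates of unsaturated fatty acids, read 1035 and 1995 units, 1.93-fold higher. The 2 components that pass electrons on to the respiratory chain differed from each other. Etfdh, the oxidoreductase, read 1279 units in the fed and 2549 units in the fasted pool, 1.99-fold higher, whereas Etfb, a subunit of the electron transfer flavoprotein, read 1389 and 1469 units, 1.06-fold higher. Both are among 8 genes the study selected on these and further arrays, of which 6 were measured and 5 were higher, which is therefore not independent evidence of their direction.

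Peroxisomes shorten very long fatty acids, and most of their measured genes were also higher, while the microsomal omega-oxidation enzymes showed no common direction. Of 20 measured genes of peroxisomal β-oxidation and biogenesis, 14 were higher and 0 were lower, with a median log2 difference of 0.70. Ehhadh, the bifunctional enzyme of the peroxisomal spiral, read 2279 units in the fed and 10629 units in the fasted pool, 4.66-fold higher. The thiolase gene Acaa1a read 415 and 1204 units, 2.90-fold higher, and the isomerase gene Ech1 read 1323 and 3359 units, 2.54-fold higher. Pex11a, which drives peroxisome division, read 146 and 1168 units, 7.98-fold higher, and the import receptor gene Pex19 read 76.9 and 213 units, 2.77-fold higher. Omega-oxidation was mixed beyond the Cyp4a genes named above, with 3 of 7 measured genes higher and 1 lower. Of the 3 higher genes Cyp4a14 and Cyp4a31 could be included only because they differed. Aldh3a2, the fatty aldehyde dehydrogenase, read 460 and 1393 units, 3.03-fold higher. Cyp4f14, which acts on leukotrienes, read 2166 units in the fed and 392 units in the fasted pool, 5.53-fold lower.

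The ketone body list was sparse. Acat1, mitochondrial acetoacetyl-CoA thiolase, read 4324 and 4716 units, 1.09-fold higher, and Bdh1, which interconverts the ketone bodies, read 1861 and 2005 units, 1.08-fold higher. The 2 further probesets of Acat1 above 64 units had log2 differences of -0.07 and 0.68, the latter past the cutoff. By the brightest probeset, of 4 measured genes only the monocarboxylate carrier gene Slc16a7 passed the cutoff. It read 274 units in the fed and 763 units in the fasted pool, 2.78-fold higher. Thioesterases and the coenzyme A cycle had 5 of 10 genes higher and 1 lower. Acot1, a cytosolic acyl-CoA thioesterase, read 142 units in the fed and 3193 units in the fasted pool, 22.4-fold higher, and Acot12, which acts on acetyl-CoA, read 684 and 2125 units, 3.11-fold higher. Nudt7, a peroxisomal coenzyme A diphosphatase, read 10684 and 6079 units, 1.76-fold lower.

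Uptake and storage of fatty acids showed no common direction. Among genes that take up, bind or activate fatty acids, 3 of 13 measured genes were higher and 5 were lower, with a median log2 difference of -0.19. Over all measured genes 12.8% were higher and 12.6% were lower. Fabp1, the abundant liver fatty acid binding protein, read 23524 units in the fed and 20630 units in the fasted pool, 1.14-fold lower. Fabp5, an epidermal-type binding protein, read 1080 and 81.3 units, 13.3-fold lower, while the intestinal-type gene Fabp2 read 695 and 1833 units, 2.64-fold higher. The lipid droplet genes that were measured leaned upward, with 6 of 12 higher and 3 lower and a median of 0.55. Without the intensity threshold the median over the 21 genes with a probeset was 0.0, with 7 higher and 3 lower. Pnpla2, the adipose triglyceride lipase, read 61.9 units in the fed and 548 units in the fasted pool, 8.85-fold higher. The droplet coat genes Plin2 and Plin5 were both higher. Plin2 read 2405 and 5822 units, 2.42-fold higher, and Plin5 read 39.1 and 311 units, 7.95-fold higher. The 3 lower genes were carboxylesterases that share sequence, Ces1e, Ces1f and Ces1g. Of these Ces1g read 429 units in the fed and 49.3 units in the fasted pool, 8.69-fold lower.

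Glycerolipid and phospholipid synthesis did not move with fatty acid synthesis. Of 16 measured genes 7 were higher and 0 were lower, with a median of 0.52, beside 12.8% higher and 12.6% lower over all measured genes. Lpin2 read 465 units in the fed and 1927 units in the fasted pool, 4.15-fold higher, beside the 28.1-fold difference of Lpin1. Pctp, the phosphatidylcholine transfer protein, read 193 and 867 units, 4.51-fold higher. Gpam, the mitochondrial enzyme of the acylation step that starts triglyceride synthesis, read 1500 and 1301 units, 1.15-fold lower. Dgat1, which completes triglycerides, read 46.4 and 116 units, 2.50-fold higher.

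**Figure D2:**
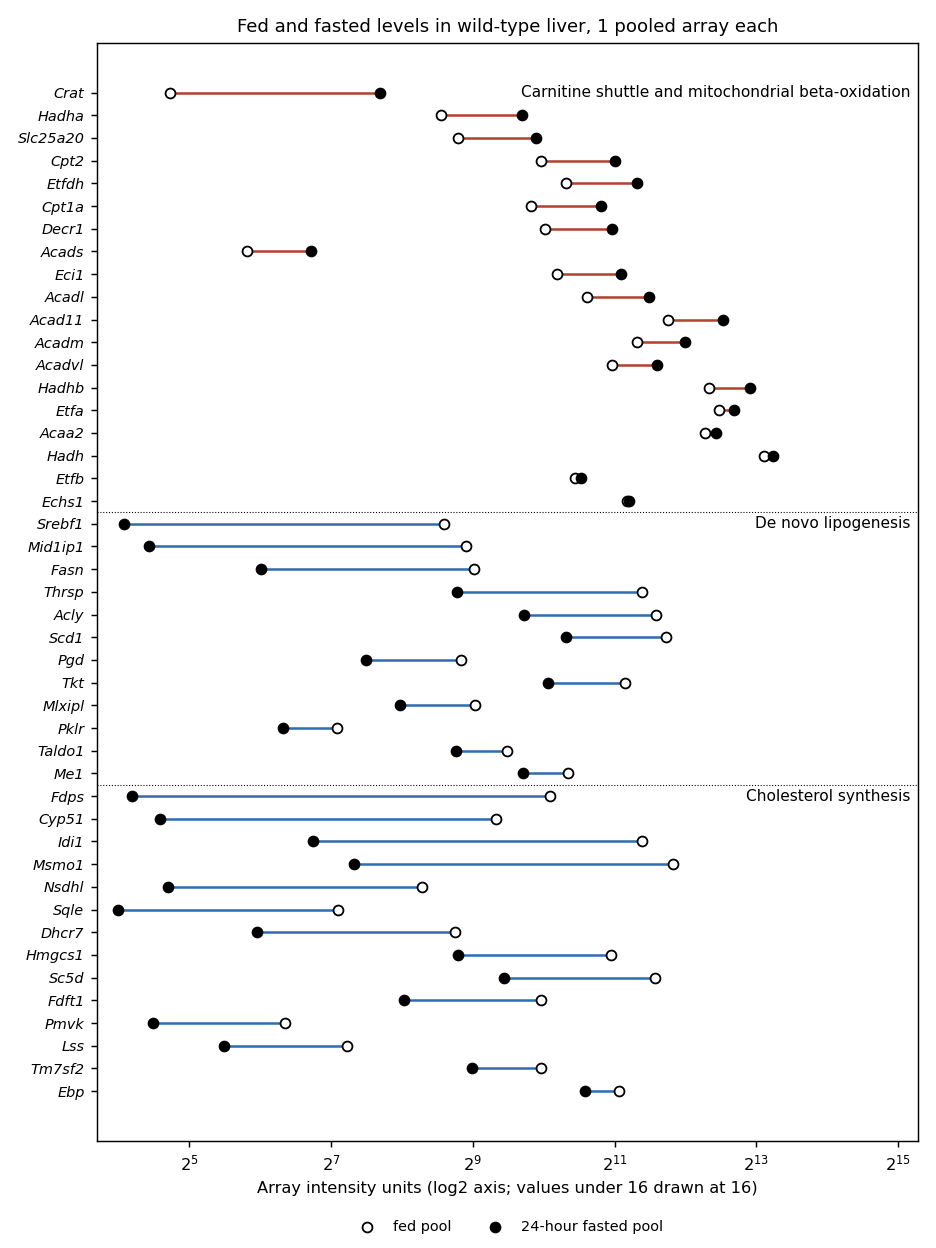
Fed (open circles) and 24-hour fasted (filled circles) array intensity, on a log2 axis in array units, of each measured gene of mitochondrial β-oxidation (19), de novo lipogenesis (12) and cholesterol synthesis (14) in wild-type liver, 1 pooled array a point. Lines are red where the fasted pool was higher and blue where it was lower, and all lines of the lower 2 blocks are blue.

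All 12 measured genes of de novo lipogenesis were lower in fasted wild-type liver, with a median log2 difference of -1.38, and 2 of them could be included only because they differed. The regulator Srebf1, which encodes SREBP-1, read 387 units in the fed and 16.9 units in the fasted pool, 22.9-fold lower, with the fasted value next to the floor. Mid1ip1, an activator of acetyl-CoA carboxylase, read 479 and 21.7 units, 22.1-fold lower. Its relative Thrsp, known as Spot 14, read 2684 and 441 units, 6.09-fold lower. Among the enzymes Fasn, fatty acid synthase, read 518 units in the fed and 64.3 units in the fasted pool, 8.05-fold lower. Acly, which makes cytosolic acetyl-CoA, read 3070 and 848 units, 3.62-fold lower. Scd1, the stearoyl-CoA desaturase, read 3399 and 1279 units, 2.66-fold lower. Pgd, Tkt and Pklr were lower by less than Fasn, Acly and Scd1. Pgd of the pentose phosphate pathway read 455 and 180 units, 2.53-fold lower, and Tkt read 2278 and 1069 units, 2.13-fold lower. Pklr, liver pyruvate kinase, read 136 and 80.1 units, 1.70-fold lower. Acaca and Acacb, the carboxylases themselves, were below 64 units in both pools. Other genes of elongation and desaturation were divided, with 3 of 11 higher and 3 lower, beside 12.8% higher and 12.6% lower over all measured genes. Elovl3, a feeding- and clock-dependent elongase, read 1100 and 238 units, 4.63-fold lower, whereas Fads2, the Δ6-desaturase, read 888 and 1501 units, 1.69-fold higher.

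Of 14 measured genes of cholesterol synthesis 13 were lower and 0 were higher, with a median log2 difference of -2.48, the lowest among the lists with 3 or more measured genes. For 5 of the 14 the fasted value was so low that they could be included only because they differed. In the mevalonate part Hmgcs1, cytosolic HMG-CoA synthase, read 1980 units in the fed and 442 units in the fasted pool, 4.48-fold lower. Idi1, which isomerizes isopentenyl diphosphate, read 2673 and 107 units, 24.9-fold lower, and its second probeset was lower by 5.77 on the log2 scale. In the later part the differences reached similar sizes. Sqle, squalene epoxidase, read 138 units in the fed pool and 6.95 units in the fasted pool, at least 8.59-fold lower. Cyp51, the lanosterol demethylase, read 644 and 24.1 units, 26.7-fold lower, while its other probeset above 64 units had a smaller log2 difference of -2.73 in place of -4.74. Msmo1, the methyl sterol oxidase that follows it, read 3628 and 160 units, 22.7-fold lower. Nsdhl read 312 and 26.1 units, 12.0-fold lower, and Dhcr7, which makes cholesterol from its last precursor, read 432 and 62 units, 6.97-fold lower. Stard4, a sterol carrier protein, read 921 and 139 units, 6.63-fold lower. Insig2, which retains the SREBP complex in the endoplasmic reticulum, read 2561 units in the fed and 4738 units in the fasted pool, 1.85-fold higher.

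The upstream sequence of Hmgcs1 is shown because it was the only measured cholesterol gene whose promoter window held the sterol regulatory element, searched as TCAC and CCAC separated by 1 base and known to be bound by SREBP. Windows of 250 bases before the RefSeq start site were searched on both strands. The element was found in 331 of 27025 genes with a window (1.22%) and in 42 of 2950 measured genes with a window (1.42%). It was in 2 of 368 genes higher in fasted liver (0.543%) and in 10 of 382 genes lower in fasted liver (2.62%). Of 11 cholesterol genes with a window 1 held it. The Hmgcs1 window, on the + strand of assembly GRCm38.p6 at chr13:119690101-119690350, is printed from 5′ to 3′ with the element, whose leading base lies at -137 from the start site, in capitals.
Hmgcs1: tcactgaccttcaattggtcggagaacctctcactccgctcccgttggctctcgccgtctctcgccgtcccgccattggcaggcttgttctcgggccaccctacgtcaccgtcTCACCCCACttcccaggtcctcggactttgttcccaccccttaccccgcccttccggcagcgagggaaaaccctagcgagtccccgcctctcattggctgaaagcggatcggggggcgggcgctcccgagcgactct
A match is a string of letters and not a shown binding site. The PPAR response element was searched as 2 copies of AGGTCA separated by 1 base, with up to 2 mismatches. It was present in 15 of 368 higher genes (4.08%), 17 of 382 lower genes (4.45%), 107 of 2950 measured genes (3.63%) and 1005 of 27025 genes (3.72%).

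Genes of glucose production and of glucose use differed in direction. Of 17 measured genes of gluconeogenesis and the pyruvate switch 7 were higher and 0 were lower, with a median of 0.42. Pck1, which makes phosphoenolpyruvate, read 6226 units in the fed and 13994 units in the fasted pool, 2.25-fold higher, although the mean over its probesets gave a log2 difference of 0.34 in place of 1.17. Pcx, pyruvate carboxylase, read 1646 and 3330 units, 2.02-fold higher. The aminotransferases that feed carbon into the pathway were also higher. Got1 read 1418 and 4961 units, 3.50-fold higher, and Gpt2 read 1300 and 3393 units, 2.61-fold higher. Slc37a4, the glucose-6-phosphate transporter, read 358 and 891 units, 2.49-fold higher, while G6pc, the catalytic subunit of the phosphatase it serves, read 2762 and 2801 units. The coactivator Ppargc1a was 3.20-fold higher, with 23.1 units in the fed and 74.0 units in the fasted pool, but with a floor of 64 units its log2 difference was 0.21 and short of the cutoff. Among genes of glucose uptake, glycolysis and glycogen the median was -0.37, 5 of 14 genes being lower and 2 higher. Ppp1r3c, which targets protein phosphatase 1 to glycogen, read 897 units in the fed and 108 units in the fasted pool, 8.28-fold lower. Gys2, liver glycogen synthase, read 282 and 485 units, 1.72-fold higher, and Pygl, liver glycogen phosphorylase, read 4888 and 3091 units, 1.58-fold lower.

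Of 30 measured genes of amino acid catabolism 5 were higher and 2 were lower, with a median of 0.22, shares near those of 12.8% and 12.6% over all measured genes. Aass, which starts lysine breakdown, read 2474 and 5882 units, 2.38-fold higher. In the urea cycle 3 of 13 genes were higher. Asl, argininosuccinate lyase, read 2977 units in the fed and 7311 units in the fasted pool, 2.46-fold higher, and the arginine transporter gene Slc7a2 read 266 and 714 units, 2.69-fold higher. Cps1, the entry enzyme, read 6555 and 7567 units, 1.15-fold higher. In the methionine cycle Mat1a, which makes S-adenosylmethionine, read 7052 and 14610 units, 2.07-fold higher. The measured mitochondrial carriers leaned upward, with 8 of 15 genes higher, 0 lower and a median of 0.70. Without the intensity threshold the median over the 18 genes with a probeset was 0.32, with 8 higher and 1 lower. Slc25a30, a carrier of the uncoupling protein family, read 42.1 and 377 units, 8.96-fold higher, and could be included only because it differed. Slc25a22, a glutamate carrier, read 163 and 517 units, 3.16-fold higher. The respiratory chain differed from this. All 34 measured subunits of the chain and of ATP synthase lay within 1.5-fold, with a median of 0.08, and so did all 20 measured cytosolic ribosomal proteins, with a median of 0.03.

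**Figure D3:**
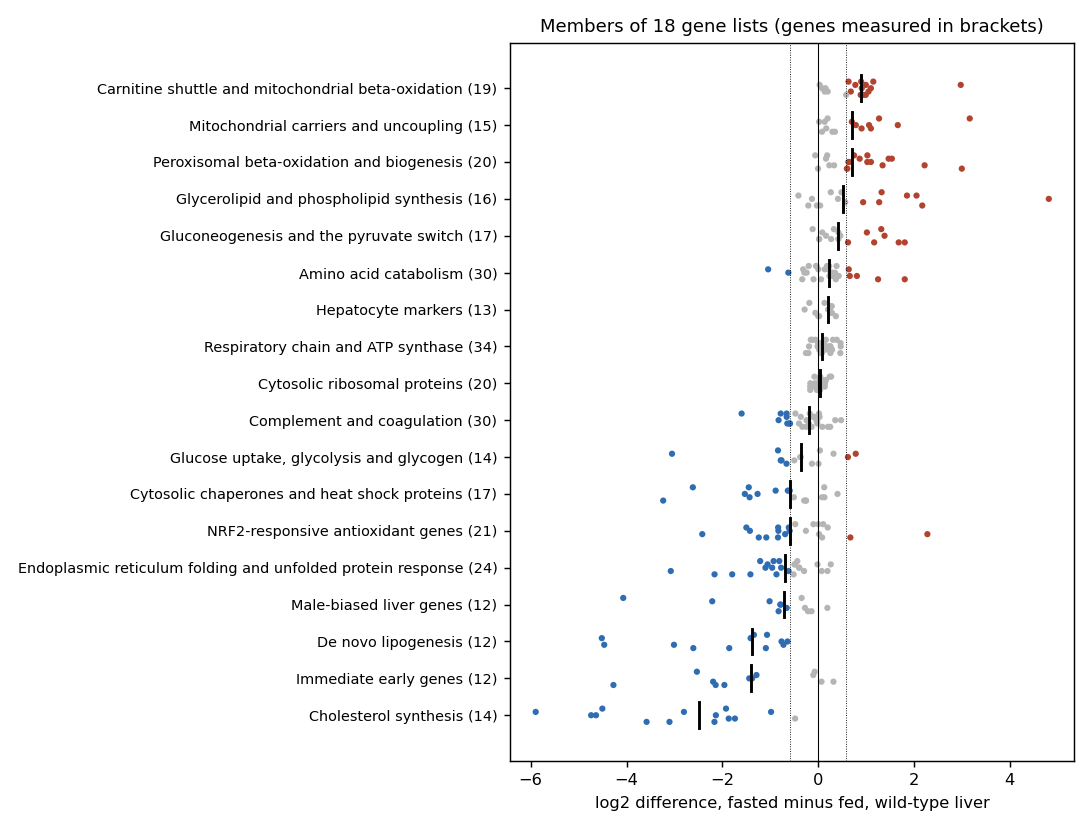
Log2 difference between the fasted and the fed wild-type pool (horizontal axis) for each measured member of 18 gene lists, with the number of genes measured in brackets, points past 1.5-fold in red (higher) or blue (lower) and a black bar at the median. Medians run from 0.89 for mitochondrial β-oxidation to -2.48 for cholesterol synthesis, and ribosomal proteins and respiratory chain subunits sit within the dotted lines at 1.5-fold.

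Hormone-responsive genes differed strongly in single members. Igfbp1, a binding protein of insulin-like growth factors that insulin represses, read 409 units in the fed and 2802 units in the fasted pool, 6.85-fold higher. Igfbp2 read 4058 and 10508 units, 2.59-fold higher, and Igf1 itself read 2804 and 2778 units. Irs1, an adaptor of the insulin receptor, read 301 and 116 units, 2.59-fold lower. In the list of glucocorticoid-responsive genes 5 of 13 were higher and 1 was lower, with a median of 0.31, and 3 of the 5 could be included only because they differed. Over all measured genes 12.8% were higher and 12.6% were lower. Beside Fkbp5 and Mt1, Mt2 read 32.9 and 453 units, 13.8-fold higher, and Angptl4, a lipoprotein lipase inhibitor of fasting, read 215 and 1196 units, 5.55-fold higher. The lower gene, Dusp1, is a phosphatase that also belongs to the immediate early genes. It read 507 units in the fed and 187 units in the fasted pool, 2.71-fold lower. Fgf21, a hormone of fasting, was below 64 units in both pools. The transcription factor genes Cebpb, with 1666 and 4042 units and 2.43-fold higher, and Atf5, with 677 and 2493 units and 3.68-fold higher, were the brightest of 4 higher genes among 10 hepatocyte transcription factors. Bcl6, a repressor that takes part in growth hormone signalling, read 673 units in the fed and 104 units in the fasted pool, 6.48-fold lower.

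Genes of the secretory pathway and of cytosolic folding were lower. Of 24 measured genes of endoplasmic reticulum folding and the unfolded protein response 13 were lower and 0 were higher, with a median log2 difference of -0.70. Creld2, a folding protein induced by stress of the endoplasmic reticulum, read 1356 units in the fed and 161 units in the fasted pool, 8.44-fold lower. Pdia6, a disulfide isomerase, read 1340 and 386 units, 3.47-fold lower. Hspa5, the chaperone BiP, read 10650 and 5826 units, 1.83-fold lower. Sec61b, a subunit of the translocation channel, read 1998 and 863 units, 2.31-fold lower, and Manf, a secreted stress protein, read 3305 and 1542 units, 2.14-fold lower. The bulk chaperone genes were closer to their fed values. Calr read 6090 and 4634 units, a log2 difference of -0.39, and Hsp90b1 read 7380 and 6017 units, a log2 difference of -0.29. Among cytosolic chaperones and heat shock proteins 9 of 17 were lower and 0 were higher, with a median of -0.59. Hspa1b, the inducible Hsp70, read 2296 units in the fed and 244 units in the fasted pool, 9.41-fold lower, and Hsph1, which exchanges its nucleotide, read 1229 and 200 units, 6.13-fold lower. Hsp90aa1 read 6194 and 3347 units, 1.85-fold lower.

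The promoter windows of the endoplasmic reticulum genes are shown because many of them share an endoplasmic reticulum stress element, the string CCAAT followed after 9 bases by CCACG, which is known to be bound by NF-Y and ATF6. This motif was added to the search after the values had been seen. It was present in the windows of 35 of 27025 genes (0.13%) and of 9 of 2950 measured genes with a window (0.305%), and 8 of these 9 belonged to the 20 endoplasmic reticulum genes with a window. Of the 8 genes with the element 5 were lower in fasted liver, with a median log2 difference of -0.90, and of the 12 without it 7 were lower, with a median of -0.70. The windows of Hspa5, at chr2:34771840-34772089, and Creld2, at chr15:88819396-88819645, both on the + strand of GRCm38.p6, are printed whole from 5′ to 3′ with the element in capitals. In Creld2, and in Calr among the genes that follow, it is read on the opposite strand.
Hspa5: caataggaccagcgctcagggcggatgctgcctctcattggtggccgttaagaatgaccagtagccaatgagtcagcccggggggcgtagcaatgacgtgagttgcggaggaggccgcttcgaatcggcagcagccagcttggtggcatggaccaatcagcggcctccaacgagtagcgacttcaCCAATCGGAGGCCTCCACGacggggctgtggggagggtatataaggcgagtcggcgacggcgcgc
Creld2: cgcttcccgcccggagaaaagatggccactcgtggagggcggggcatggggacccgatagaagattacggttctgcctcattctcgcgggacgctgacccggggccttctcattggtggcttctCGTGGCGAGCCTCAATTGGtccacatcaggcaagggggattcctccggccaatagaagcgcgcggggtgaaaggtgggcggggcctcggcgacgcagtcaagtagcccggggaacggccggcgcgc
The elements of the other 6 genes are printed with 5 flanking bases on each side. Pdia6 lies at chr12:17266486-17266514, Syvn1 at chr19:6046527-6046555 and Dnajc3 at chr14:118937822-118937850 on the + strand. Calr lies at chr8:84847070-84847098, Canx at chr11:50325795-50325823 and the upstream of 2 elements of Hsp90b1 at chr10:86705633-86705661 on the - strand.
Pdia6: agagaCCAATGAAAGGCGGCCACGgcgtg
Syvn1: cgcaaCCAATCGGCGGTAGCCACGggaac
Dnajc3: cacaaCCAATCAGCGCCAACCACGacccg
Calr: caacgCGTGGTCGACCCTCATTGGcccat
Canx: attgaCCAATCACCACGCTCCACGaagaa
Hsp90b1: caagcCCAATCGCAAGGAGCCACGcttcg
Of these, Pdia6 was given above, Syvn1, a ubiquitin ligase of the endoplasmic reticulum, read 248 and 93.2 units and was 2.66-fold lower, and Dnajc3, a co-chaperone, read 1008 and 529 units with a log2 difference of -0.93. Canx, the lectin chaperone calnexin, read 2837 units in the fed and 2023 units in the fasted pool, a log2 difference of -0.49.

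The measured antioxidant genes leaned downward and detoxification genes went both ways. Of 21 measured NRF2-responsive genes 11 were lower and 2 were higher, with a median of -0.60. Without the intensity threshold the median over the 24 genes with a probeset was -0.41, with 11 lower and 2 higher. Gclc, the catalytic subunit of glutathione synthesis, read 4156 units in the fed and 1548 units in the fasted pool, 2.69-fold lower. Nfe2l2, which encodes NRF2, read 801 and 448 units, 1.79-fold lower. Txnip, which binds thioredoxin and was counted in this list, was 1 of the 2 higher genes, with 250 and 1215 units, 4.85-fold higher. In the list of conjugation enzymes 7 of 28 were higher and 9 were lower, beside 12.8% higher and 12.6% lower over all measured genes. Gstt2, a glutathione transferase of the theta class, read 576 and 2429 units, 4.22-fold higher, while Gsta4 read 394 and 140 units, 2.83-fold lower. Among cytochromes P450 of families 1 to 3, Cyp2c39 read 42.6 and 548 units, 12.9-fold higher, and Cyp2c70 read 8714 and 1622 units, 5.37-fold lower. In retinoid metabolism Retsat, retinol saturase, read 2745 units in the fed and 11140 units in the fasted pool, 4.06-fold higher, and Rdh11, a retinal reductase, read 273 and 39.7 units, 6.88-fold lower.

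Bile acid genes went both ways, with 6 of 18 higher and 4 lower. Cyp7a1, which catalyses the limiting step from cholesterol to bile acids, read 197 units in the fed and 654 units in the fasted pool, 3.33-fold higher, and Cyp8b1, which sets the type of bile acid, read 1133 and 3494 units, 3.08-fold higher. Abcb11, the bile salt export pump, read 1308 and 375 units, 3.49-fold lower. Nr0b2, the repressor SHP that restrains bile acid synthesis, read 314 and 124 units, 2.54-fold lower. Of 17 apolipoprotein and assembly genes 3 were higher and 0 lower, beside 12.8% higher and 12.6% lower over all measured genes. Apoa4 read 6093 units in the fed and 14937 units in the fasted pool, 2.45-fold higher. Alas1, the rate-limiting enzyme of heme synthesis, read 853 and 2810 units, 3.29-fold higher.

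Immediate early genes, which respond to growth factors and handling within minutes, were lower in the fasted pool in 8 of 12 measured cases, with 0 higher and a median of -1.41. For 3 of the 8 the fasted value was so low that they could be included only because they differed. Fos read 309 units in the fed and 11.8 units in the fasted pool, at least 19.3-fold lower. Egr1 read 696 and 120 units, 5.78-fold lower, and Jun read 467 and 102 units, 4.57-fold lower. Without the intensity threshold the median of the 22 genes with a probeset was -0.09, and 9 were lower. Of the core clock 5 genes were measured. Bhlhe40, a repressor within the clock that also responds to feeding, read 234 and 45.5 units, 5.14-fold lower, and Cry2 read 119 and 222 units, 1.87-fold higher. The clock output factors had 4 of 8 genes higher and 2 lower, and Dbp, whose level swings widely over the day, read 208 and 262 units, 1.26-fold higher, while its second probeset had a log2 difference of 0.90, past the cutoff. The temperature-responsive gene Cirbp read 24.7 units in the fed and 109 units in the fasted pool, 4.43-fold higher. It was among 3 higher of 15 measured genes of that list, beside 12.8% higher over all measured genes.

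Genes that male liver expresses more were lower in 7 of 12 measured cases, with 0 higher and a median of -0.72. Elovl3, Hsd3b5 and Slco1a1, a bile acid and organic anion carrier that read 2815 and 1394 units and was 2.02-fold lower, were among them. Complement and coagulation genes were lower in 8 of 30 cases and higher in 0, with a median of -0.18. F11, coagulation factor XI, read 1493 and 493 units, 3.03-fold lower. In the acute phase list 4 of 22 were higher and 3 were lower, near the shares of 12.8% and 12.6% over all measured genes. Lbp, which binds bacterial lipopolysaccharide, read 260 units in the fed and 814 units in the fasted pool, 3.14-fold higher, and Apcs, serum amyloid P, read 4934 and 1933 units, 2.55-fold lower.

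Markers of other cell types differed in brightness, and several of those measured were lower in the fasted pool. None of the genes with a probeset in the lymphocyte list (15), the neutrophil list (9) and the skeletal muscle list (10) reached 64 units in either wild-type pool. Of 16 Kupffer cell and macrophage markers with a probeset 5 were measured, and 4 of them were lower, with a median of -0.90. The summed level of that list was 1826 units in the fed and 1185 units in the fasted pool. C1qb, a complement subunit made by macrophages, read 195 and 95.4 units, 2.04-fold lower, and Cd5l read 235 and 139 units, 1.69-fold lower, while the defining markers Adgre1 and Clec4f were below 64 units in both. In the endothelial list 1 of 6 measured markers was lower, Clec4g, with 233 and 70.8 units and 3.29-fold lower, and in the bile duct list 1 of 2 was lower. Over all measured genes 12.6% were lower. None of 4 stellate cell and fibroblast markers passed the cutoff, and Dcn, the matrix protein decorin, read 1061 and 1175 units. The only measured marker of the erythroid list, Alas2, read 465 units in the fed and 194 units in the fasted pool, 2.39-fold lower. That of the adipocyte list, Car3, which hepatocytes also express, read 14741 and 7288 units, 2.02-fold lower. The part of the Kupffer cells in the lower complement genes and in the lower Cxcl1 was not tested. Cela1, an elastase, read 552 units in the fed and 53.9 units in the fasted pool, 10.2-fold lower, and was the only exocrine pancreas marker at 64 units or more, with the trypsinogen Prss2 and the lipase cofactor Clps below it.

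The fasting response of PPARα-null liver shares no array with that of wild-type liver, so the 2 were set beside each other. In the null pools 632 of 3671 measured genes (17.2%) were higher and 921 (25.1%) were lower after the fast. Across 3434 genes measured in both genotypes the log2 differences correlated with Pearson's r = 0.648 and Spearman's rho = 0.624. With 64 units or more on the brightest of the 4 arrays, Pearson's r was 0.608 over 3808 genes. This is a description across genes, which are not independent replicates. Of 411 genes higher in wild-type and measured in both, 229 (55.7%) were also higher in the null pools, 151 lay within 1.5-fold and 31 (7.54%) were lower. Of 432 genes lower in wild-type 329 (76.2%) were also lower in the null pools, 97 lay within 1.5-fold and 6 (1.39%) were higher. The median null difference was 0.71 for the set of higher genes and -1.11 for the set of lower genes. These sets leave out genes below 64 units in both null pools, and hold 411 of the 457 higher and 432 of the 450 lower genes.

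List medians are given side by side. For mitochondrial β-oxidation the median was 0.89 in wild-type and -0.08 in the null pools, and for peroxisomal genes it was 0.70 and 0.24. Single genes did differ in the null pools. Of 18 mitochondrial genes 4 were higher and 3 lower there, and of 20 peroxisomal genes 3 were higher and 4 lower. De novo lipogenesis had medians of -1.38 and -1.57, and cholesterol synthesis -2.48 and -1.83. Endoplasmic reticulum folding had -0.70 and -0.65. The Kupffer list had -0.90 in wild-type and 0.19 in the null pools, over 5 genes each. These differences between genotypes were not tested.

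**Figure D4:**
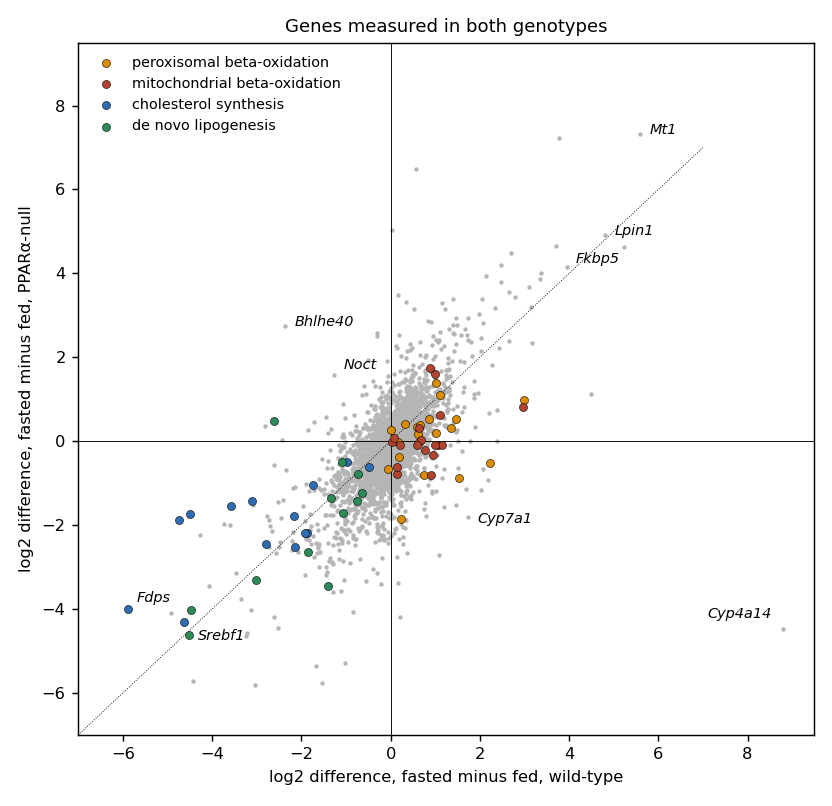
Log2 difference, fasted minus fed, of each of 3434 genes measured in both genotypes in wild-type (horizontal) and PPARα-null (vertical) liver, 1 pooled array per group, with the dotted line marking equal differences. Genes of cholesterol synthesis and de novo lipogenesis lie mostly in the lower left, while Cyp4a14 lies at 8.80 and -4.48. The β-oxidation genes lie mostly to the right. Their medians on the vertical axis are -0.08 (mitochondrial) and 0.24 (peroxisomal), with some genes past 1.5-fold either way.

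Among the 10 genes whose differences were largest in the same direction in the null pools, Lpin1 was closest to equal in both, with log2 differences of 4.81 in wild-type and 4.90 in the null pools. Mt1 had 5.59 and 7.32, and Mt2 had 3.78 and 7.23. St3gal5 had 3.72 and 4.66. On the lower side Hsd3b2 had -4.43 and -5.73, Ppp1r3c -3.05 and -5.80 and Hspa1b -3.23 and -4.65. Keg1, Sucnr1 and Chac2 had smaller wild-type differences, of -1.68, -1.55 and -1.01, than null differences, of -5.36, -5.75 and -5.28. The fasted null values of Ppp1r3c and Chac2 were below the floor, so their null differences are lower limits of size. Vnn1, in contrast, was 50.7-fold higher in wild-type and had a log2 difference of -0.10 in the null pools, and Cyp2c39 was 12.9-fold higher in wild-type with 0.16 in the null pools, where both genes stayed below 64 units.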

How the data were processed

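Liver RNA of 4 groups (wild-type or PPARα-null, fed or fasted) was hybridized to 1 pooled array each. The deposited values are linear array intensities made by the authors with GCRMA, for which the submitters' processing notes name version 2.20. The sources used here do not state which arrays entered that normalization together, and they differ on the RNA amount and pool size.

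Log2 differences, fasted minus fed, were computed with Python 3.11.15, numpy 2.4.6, pandas 2.3.3 and statsmodels 0.14.6 after values under 16 units were set to 16, and drawn with matplotlib 3.10.9. Control probesets were left out. A gene was represented by its probeset with the highest mean, among 20393 probesets naming 1 gene, while 691 named several and 1606 none. Gene symbols were those of the platform annotation. The text names genes from the 25 largest differences each way at 128 units or more, up to 8 members of each list, defining members whatever their difference, and the 10 with the largest null difference of the same or the opposite sign. A few others were chosen after their values were seen. Members and lists were chosen with earlier results of these data known. Promoter windows came from RefSeq (GRCm38.p6). The scripts were tested on simulated data. Alternatives changed the fold, floor, filter, scaling and choice of probeset. With 1 array a group, precision is limited by the number of arrays and no test was made.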

Additional observations from a re-analysis of the deposited data

Results flagged for a closer look

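Of the genes taken by the naming rule, 21 lay past 1.5-fold in opposite directions after the fast in the wild-type and the PPARα-null pools. The rule itself takes the 10 genes with the largest opposite null difference, so this count was partly set by the selection. Over all genes measured in both genotypes, 31 of 411 higher in wild-type were lower in the null pools. Of 432 lower in wild-type, 6 were higher in the null pools. With 1 pooled array a group these differences between genotypes were not tested. Of the 21 genes 3 were lower in fasted wild-type liver and higher in the null pools, by the log2 differences given in that order. Bhlhe40 had -2.36 and 2.74, Noct, a deadenylase-like clock output gene, had -1.26 and 1.59, and the complement gene C6 had -0.826 and 0.63. Bhlhe40 read 234 and 45.5 units in the fed and fasted wild-type pools, and 191 and 1282 units in the null pools.

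The other 18 were higher in fasted wild-type liver and lower in the null pools. Cyp4a14 had 8.8 and -4.48, and its fasted null value of 11.7 units was below the floor. Genes of lipid and bile acid metabolism were among them. Cyp7a1 had 1.73 and -1.82, the bile acid receptor gene Nr1h4 had 0.787 and -1.79, Acaa1a had 1.54 and -0.87, Pctp had 2.17 and -0.93, Gpd1 had 0.938 and -1.24, and the fatty acid transporter gene Cd36 had 0.877 and -0.90. The wild-type values of Gpd1 and Cd36 were 0.50 and 0.53 as means over their probesets, short of 1.5-fold. Cyp7a1 read 197 and 654 units in the wild-type pools and 155 and 44.1 units in the null pools. Retsat had 2.02 and -1.16, Gstt2 2.08 and -0.67, Vnn3 1.68 and -1.13, Pank1, a pantothenate kinase, 0.59 and -0.59, Tkfc 1.2 and -1.56, and Cpox of heme synthesis 0.757 and -0.63. Fgf1 had 1.19 and -0.65, Etfbkmt 1.46 and -1.53, Abhd1 0.769 and -1.47, and Lyst 0.739 and -1.61. The nuclear RNA Neat1 had 1.09 and -2.70, with 2771 and 5880 units in the wild-type pools and 3838 and 589 units in the null pools.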

How the results depend on the processing

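The main counts of 744 higher and 678 lower probesets were 13.1% and 12.0% of 5661. At 2-fold they were 289 and 318 (5.11% and 5.62%). At 4 times the intensity threshold they were 429 and 415, or 12.9% and 12.5% of 3315 probesets. Without probesets whose suffix marks matches to several transcripts they were 471 and 412, or 15.0% and 13.1% of 3145. Counted by gene they were 457 and 450, or 12.8% and 12.6% of 3571. No other alternative moved these counts by over 1.5 times, and no named gene past 1.5-fold changed sign under any alternative run. The balance between higher and lower probesets did turn, from 744 and 678 to 679 and 735 with lowess, and at 2-fold as given above. The median of de novo lipogenesis was -1.75 without suffixed probesets. That of cholesterol synthesis was -2.15 with a floor of 64 units, -2.80 without suffixed probesets and -2.03 without the intensity threshold, an alternative chosen for lists after seeing the data. Without that threshold 10 medians of lists with 3 or more measured genes moved by the SD of 0.263 or more, and 50 did not. Lipid droplet proteins then had a median of 0.0, mitochondrial carriers 0.32, Kupffer cell markers -0.56 and immediate early genes -0.09. Without suffixed probesets the remaining probesets of Angptl4, Mt1, Pnpla2, Mgll, Fkbp4, Gstm3 and Tubb2a were at the floor on both arrays. With the mean over a gene's probesets Pck1, Cd36 and Gpd1 had log2 differences of 0.34, 0.53 and 0.50, below 1.5-fold, and the cause was not tested. With a floor of 64 units Ppargc1a, Lpl and Cebpd were no longer past 1.5-fold. No paired analysis was possible because each group held 1 array and the labels carry no replicate numbers.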
